A study of Mus musculus with 6 samples.

Results

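The expression of 10 kinase and pseudokinase genes known from rapid responses to inflammatory, stress or growth signals was examined: Pim1 and Pim3 (the PIM kinases), Plk2 and Plk3 (polo-like kinases), Map3k8 (which encodes TPL2), Trib1 and Trib3 (the Tribbles pseudokinases), Sik1, Sgk1 and Mapkapk2 (which encodes MK2). They were taken by gene symbol out of 55335 rows of a count table, and all 10 were among the 15687 genes with enough counts to be tested. The table came from RNA-seq of bone marrow-derived macrophages (BMDMs) of C57BL/6 mice, which were grown from femur and tibia marrow in medium conditioned by L929 cells, a source of macrophage colony-stimulating factor. The control group was 3 libraries of BMDMs given phosphate-buffered saline (PBS) for 1 h, and the LPS group was 3 libraries of BMDMs given lipopolysaccharide (LPS), the bacterial ligand of Toll-like receptor 4, for 1 h. No gene was deleted or added in either group. The question put to each gene was whether its mRNA differed after LPS, and by how much next to its relatives and the components of its pathway.

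Several of these kinases are short-lived or constitutively active proteins, so that the amount of their mRNA does much to set the amount of activity. PIM kinases need no activating phosphorylation and act on regulators of survival, the cell cycle and translation. TPL2 is the kinase that links Toll-like receptors to MEK and ERK, and is held inactive by p105, the product of Nfkb1. The Tribbles protein TRIB1 binds the ubiquitin ligase COP1 and brings it to transcription factors of the C/EBP family. SIK1 restrains CREB coactivators and class IIa histone deacetylases, SGK1 is an AGC kinase downstream of mTORC2 and PDK1, and MK2 is the kinase through which p38 controls the stability of cytokine mRNAs.

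The 6 libraries held between 37787611 and 41516330 counts in genes. Levels are given as CPM, a gene's counts relative to all counts of its library, with library sizes scaled by trimmed mean of M values (TMM); this scaling factor was 1.15 in each of the 3 control libraries and between 0.864 and 0.872 in the LPS libraries, so the scaling itself differed between groups, and the results that turn on it are named below. The 7 macrophage markers summed to between 29529 and 30804 CPM in control libraries and between 32273 and 32622 CPM in LPS libraries. Most of this sum was Lyz2, with means of 23258 CPM in control and 24212 CPM in LPS libraries. The markers did not all move together: Fcgr1 was lower after LPS (means of 396 and 284 CPM), and Mertk showed no difference (109 and 106 CPM). Before scaling, Lyz2 had 1050212 to 1129279 counts in control and 785254 to 833678 in LPS libraries. Mertk had 4826 to 5283 and 3506 to 3569 counts, so both comparisons depend on the scaling. The markers of T cells and B cells each summed to at most 1.25 CPM in any library, and the 3 fibroblast markers summed to between 9.87 and 12.2 CPM. The 5 neutrophil markers summed to between 33.2 and 35.1 CPM in control and between 43.3 and 45.3 CPM in LPS libraries, and the 3 dendritic cell markers to between 2.75 and 3.62 CPM and between 7.49 and 8.46 CPM. The neutrophil markers differed among themselves. Ly6g, which defines neutrophils, had a mean of at most 0.031 CPM in either group. S100a8 had means of 11.3 CPM in control and 14.9 CPM in LPS libraries, and S100a9 19.3 and 25.0 CPM. Before scaling, S100a8 had 491 to 575 counts in control and 479 to 511 in LPS libraries. S100a9 had 805 to 982 and 807 to 871 counts, so the differences in CPM of both genes depend on the scaling. Mpo had means of 2.88 and 3.55 CPM, and Elane 0.567 CPM in both groups. Whether these other cells had a part in the results was not tested, and in bulk RNA fewer cells of a type and less RNA per cell cannot be told apart.

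A gene is said to have risen or fallen where it passed an adjusted p of 0.05 in the quasi-likelihood test of edgeR and its log2 fold change was beyond 1 or -1. By this rule 7 of the 10 kinase genes rose (Pim1, Pim3, Plk3, Trib1, Sik1, Sgk1 and Mapkapk2) and 0 fell, while 10.5% of all tested genes rose and 10.4% fell. Of the other three, Plk2 passed the adjusted p alone with a higher level after LPS, and Map3k8 and Trib3 passed it alone with a lower level. Counted by adjusted p alone, 8 of the 10 genes were higher and 2 lower, against 32.9% and 34.9% of all tested genes. The median log2 fold change was 1.80 over the 10 genes and -0.01 over all tested genes. The normalized CPM of the groups did not overlap for any of the 10 genes, as was the case for 70.5% of tested genes. Summed over the 10 genes, they reached 922 ± 11.1 CPM in control and 3637 ± 55.4 CPM in LPS libraries (SD, n = 3 each), a 3.95-fold difference. As a share of counts, not corrected for length, Pim1 made up 12.4% ± 0.396 (SD, n = 3) of that sum in control and 37.6% ± 0.916 (n = 3) in LPS libraries.

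**Figure D1:**
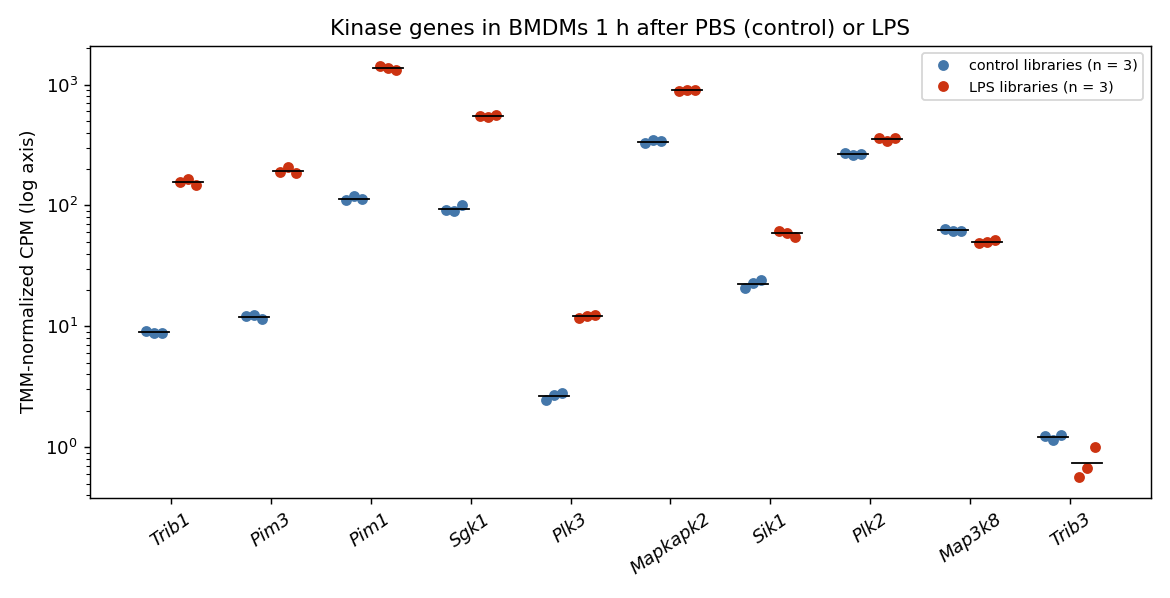
TMM-normalized CPM (log axis) of the 10 kinase genes in each of 3 control (blue) and 3 LPS (red) libraries, with the group mean as a line and genes ordered by fold change. The groups are separate for every gene, from Trib1 at the left, with means of 8.92 and 156 CPM, to Trib3 at the right, with means of 1.21 and 0.746 CPM.

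The start sites of these genes are shown first because several of the 10 are regarded as targets of CREB, STAT or NF-κB factors. RefSeq promoters of the mouse build GRCm38.p6, running from 250 bases before to 50 bases after each start site, matched 7 of the 10 genes, all but Trib1, Sik1 and Map3k8. They were searched on both strands for the cAMP response element TGACGTCA, its core TGACG (which also lies within the full element), the GAS element TTCNNNGAA of STAT factors, the κB consensus and the CArG box of serum response factor. The promoters of the pair of genes with the most strongly raised mRNA among the 7, Pim3 and Pim1, and of the polo-like and Tribbles genes whose responses differed are printed 5′ to 3′, with the motifs in capitals.
Pim1, chr17:29490535-29490834, plus strand: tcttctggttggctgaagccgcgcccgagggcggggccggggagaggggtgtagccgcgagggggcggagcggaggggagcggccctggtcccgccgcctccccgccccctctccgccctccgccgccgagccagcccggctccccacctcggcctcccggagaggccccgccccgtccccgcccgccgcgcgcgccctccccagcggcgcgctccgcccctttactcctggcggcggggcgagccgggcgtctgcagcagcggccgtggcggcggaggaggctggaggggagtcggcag
Pim3, chr15:88861944-88862243, plus strand: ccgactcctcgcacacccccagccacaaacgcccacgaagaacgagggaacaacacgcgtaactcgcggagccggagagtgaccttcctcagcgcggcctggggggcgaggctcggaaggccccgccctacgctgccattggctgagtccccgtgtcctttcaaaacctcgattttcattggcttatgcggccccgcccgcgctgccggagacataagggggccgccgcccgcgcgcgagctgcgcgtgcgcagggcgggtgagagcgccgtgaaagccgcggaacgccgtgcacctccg
Plk2, chr13:110394794-110395093, plus strand: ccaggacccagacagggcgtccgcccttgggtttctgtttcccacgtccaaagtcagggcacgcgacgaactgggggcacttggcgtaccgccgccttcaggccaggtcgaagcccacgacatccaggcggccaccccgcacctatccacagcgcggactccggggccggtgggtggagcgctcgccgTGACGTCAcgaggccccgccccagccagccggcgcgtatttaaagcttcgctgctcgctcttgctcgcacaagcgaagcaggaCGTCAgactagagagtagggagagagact
Plk3, chr4:117133914-117134213, minus strand: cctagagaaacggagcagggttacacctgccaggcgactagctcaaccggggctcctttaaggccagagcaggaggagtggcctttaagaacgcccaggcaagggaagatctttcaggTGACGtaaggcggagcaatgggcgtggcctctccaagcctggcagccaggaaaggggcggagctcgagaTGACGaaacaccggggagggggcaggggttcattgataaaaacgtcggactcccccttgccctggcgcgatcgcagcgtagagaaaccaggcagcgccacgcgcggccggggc
Trib3, chr2:152344011-152344310, minus strand: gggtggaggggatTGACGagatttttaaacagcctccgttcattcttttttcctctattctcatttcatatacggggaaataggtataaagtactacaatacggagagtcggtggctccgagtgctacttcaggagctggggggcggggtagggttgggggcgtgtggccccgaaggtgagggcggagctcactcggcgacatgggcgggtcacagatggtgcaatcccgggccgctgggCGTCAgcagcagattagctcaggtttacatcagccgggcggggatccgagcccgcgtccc
The Plk2 promoter held the full cAMP response element at -62 to -55, counted from the start site, and a core at 22 to 26; this full element was found in 1.79% of 32851 promoters. The Plk3 promoter held cores at -132 to -128 and at -63 to -59, and the Trib3 promoter at -237 to -233 and at -10 to -6. The Mapkapk2 promoter, not printed, had 1 core at 11 to 15. At least 1 such core was found in 20.8% of all promoters and in 30.9% of those of genes that rose. No motif of the 5 kinds lay in the printed Pim1 and Pim3 windows, which says only that these letters are not in these windows. RefSeq lists 6 start sites for Sgk1, and the first had a GAS element at -223 to -215, a motif present in 8.3% of promoters, and the second a core at -236 to -232. The κB consensus (4.51% of promoters) and the CArG box (1.63%) were in none of the windows of these 7 genes. Among promoters of genes that rose, the full cAMP response element was found in 2.75% and the GAS element in 7.67%. The κB consensus was found in 9.67% of them and the CArG box in 1.83%.

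Pim1 (ENSMUSG00000024014.8, GRCm38 chr17:29490753-29496112, plus strand) encodes the PIM kinase best known from myeloid and lymphoid cells. Its level was 109.9, 119 and 113 CPM in control libraries 1 to 3 and 1412, 1382 and 1308 CPM in LPS libraries 1 to 3. All LPS libraries lay far above all control libraries. The log2 fold change was 3.58 (SE 0.04, n = 3 per group, edgeR adjusted p = 1.96e-21), or 12.0-fold. Pim3 (ENSMUSG00000035828.11, chr15:88862186-88865726, plus strand), its close relative, had 12.2, 12.3 and 11.5 CPM in control and 188, 209 and 185 CPM in LPS libraries. Pim3 rose 16.2-fold, with a log2 fold change of 4.01 (SE 0.05, edgeR adjusted p = 7.06e-21). The third family member, Pim2, was at 1.68 ± 0.0162 CPM in control and 2.57 ± 0.378 CPM in LPS libraries (SD, n = 3 each). Its log2 fold change of 0.61 (SE 0.15, edgeR adjusted p = 0.0013) did not reach the fold criterion.

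Per kilobase of exon, which allows genes to be compared, the PIM family summed to 39.5 ± 1.48 CPM per kb (SD, n = 3) in control and 487 ± 18.5 CPM per kb (n = 3) in LPS libraries, a 12.4-fold difference. Pim1 supplied 85.9% ± 0.542 of this sum in control and 83.4% ± 0.855 in LPS libraries, and Pim3 12.5% ± 0.496 and 16.4% ± 0.878. The shares of the 3 control and 3 LPS libraries did not overlap for either gene, and the exact two-sided permutation p was 0.1, the smallest that 3 against 3 libraries allow. Pim1 was thus the main PIM transcript in both states, with a slightly smaller part after LPS. A gene annotated antisense to Pim1, Gm26885, shares 488 bp of exon with it. Its counts were 4, 9 and 5 without LPS and 53, 37 and 47 with it. These are few beside the 5216 to 5388 and 44525 to 47414 counts of Pim1, and whether the counting used strand was not stated, so reads over the shared bases cannot be assigned to a strand here.

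Trib1 (chr15:59648350-59657099, plus strand), the Tribbles pseudokinase that directs COP1 to C/EBPα and shapes macrophage and granulocyte development, had the highest fold change of the 10. Its level was 9.21, 8.80 and 8.73 CPM in control and 156, 164 and 148 CPM in LPS libraries, for a log2 fold change of 4.13 (SE 0.05, edgeR adjusted p = 2.00e-21), or 17.5-fold, and 98.3% of tested genes had a lower one. Trib3 (chr2:152337422-152344032, minus strand), known as a target of ATF4 and CHOP in stressed cells and as an AKT binding partner, was lower after LPS. Its counts were only 59, 52 and 58 without LPS and 19, 22 and 34 with it, or 1.24, 1.15 and 1.26 CPM against 0.566, 0.674 and 0.999 CPM. LPS library 3 came close to the control libraries, while LPS libraries 1 and 2 were lower. The log2 fold change was -0.70 (SE 0.22, edgeR adjusted p = 0.00996), and the ratios within batches 1 to 3 were -1.13, -0.77 and -0.33. Without LPS library 1 the value was -0.54 with an edgeR adjusted p of 0.0620, so the call by adjusted p rests on that library, and with library size alone the value was -1.10, past the fold criterion. Trib2 was at 0.300 CPM in control and 0.160 CPM in LPS libraries, too low to be tested.

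Trib1 was the main Tribbles transcript in both groups, and after LPS it was nearly the whole of the family. Per kilobase it summed to 2.07 ± 0.0832 CPM per kb in control and 25.4 ± 1.21 CPM per kb in LPS libraries (SD, n = 3 each). Trib1 made up 69.0% ± 1.35 of this in control and 98.5% ± 0.475 in LPS libraries, and Trib3 27.7% ± 1.05 and 1.39% ± 0.477 (exact permutation p = 0.1 for each, the smallest possible). The size of the change in the share of Trib1, 29.4 percentage points, depends on gene length: it was 23.4 points with the longest transcript as the length and 13.9 points with counts not divided by length.

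Plk2 (chr13:110395046-110400844, plus strand) and Plk3 (chr4:117128655-117133963, minus strand) encode polo-like kinases that answer stress and growth signals, in contrast to Plk1 and Plk4, which serve mitosis and centriole duplication. Plk2 was abundant before stimulation, at 271, 262 and 264 CPM, and reached 364, 339 and 360 CPM in LPS libraries. The groups did not overlap, and the log2 fold change was 0.42 (SE 0.03, edgeR adjusted p = 6.44e-09), or 1.33-fold. This value depends on the scaling: with library size alone it was 0.01 (edgeR adjusted p = 0.787), so that the call by adjusted p was lost. Plk3 was low, at 2.48, 2.70 and 2.79 CPM in control and 11.7, 12.2 and 12.5 CPM in LPS libraries. It rose 4.57-fold, a log2 fold change of 2.19 (SE 0.09, edgeR adjusted p = 2.44e-13). Plk3 shares 84 bp of exon with Tctex1d4 on the opposite strand, whose counts went from 36 to 42 down to 10 to 21 and so moved in the other direction.

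Among the other polo-like genes, Plk4 had a log2 fold change of 0.78 (SE 0.06) and Plk1 one of -0.49 (SE 0.12, edgeR adjusted p = 0.0020), both short of the fold criterion, and Plk5 had no count. Per kilobase, Plk2 made up 93.3% ± 0.279 of the PLK family in control and 90.1% ± 0.422 in LPS libraries, and Plk3 1.66% ± 0.123 and 5.48% ± 0.282 (SD, n = 3 each, exact permutation p = 0.1 for each). The change of 3.83 percentage points for Plk3 was 2.46 points with the longest transcript as the length and 2.19 points with counts not divided by length. The polo-like pool in these macrophages was mostly Plk2 transcript in both groups, and the gene with the larger fold change supplied the smaller part.

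**Figure D2:**
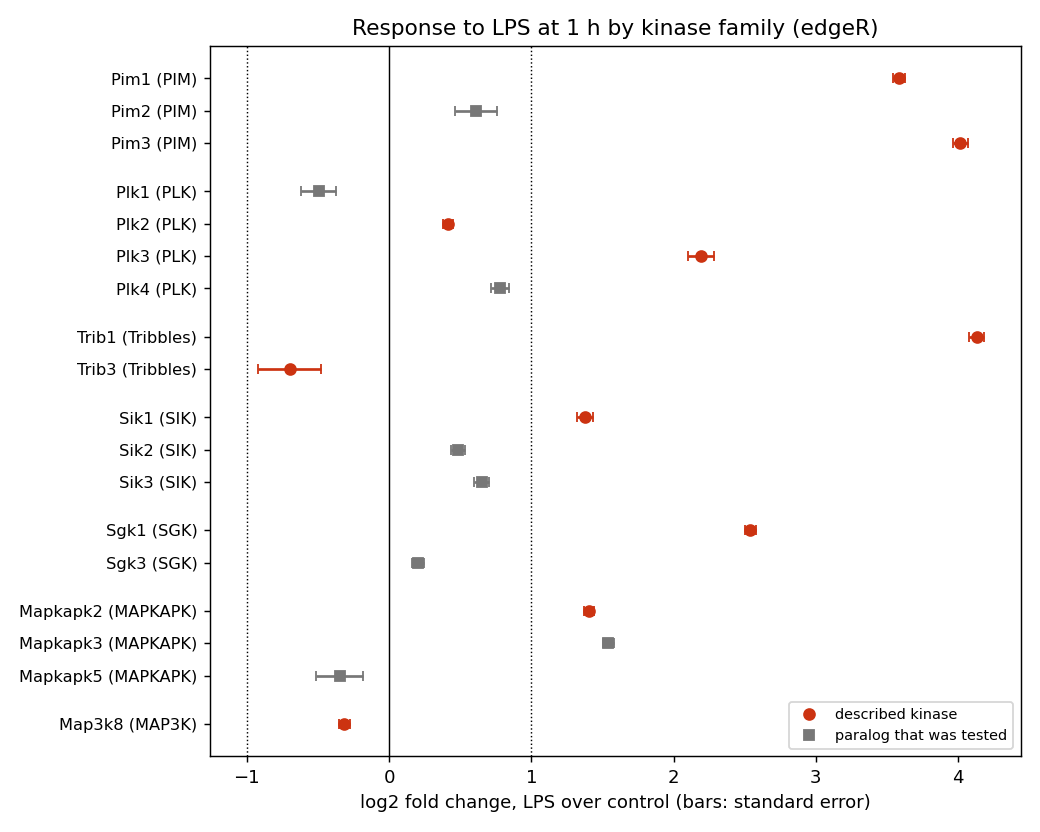
Log2 fold change of LPS over control from edgeR (horizontal axis, bars are the standard error, 3 libraries per group) for the 10 kinase genes (red circles) and the 8 tested paralogs (grey squares), grouped by family, with dotted lines at the fold criterion. Trib1, Pim3 and Pim1 lie furthest to the right, and Mapkapk3 is the one paralog past the line at 1.

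Map3k8 (chr18:4331327-4353015, minus strand), the gene of TPL2, was not raised by LPS. It had 64.0, 61.4 and 61.5 CPM in control and 48.6, 49.7 and 51.9 CPM in LPS libraries. Every LPS library was below every control library, and the log2 fold change was -0.32 (SE 0.04, edgeR adjusted p = 1.54e-06), or 1.24-fold higher in control. Within batches 1 to 3 the log2 ratios were -0.40, -0.30 and -0.25. The counts before scaling were 2774 to 3048 in control and 1624 to 1767 in LPS libraries, and with library size alone the log2 fold change was -0.72.

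The other MAP3K genes showed no common direction. Of 17 listed, 14 were tested, 3 rose and 0 fell, against 10.5% and 10.4% of all tested genes, with a median log2 fold change of 0.01. Map3k6 had a log2 fold change of 2.06 (SE 0.08), Map3k5, which encodes the stress kinase ASK1, one of 1.23 (SE 0.04), and Map3k14, which encodes the NF-κB-inducing kinase NIK, one of 1.23 (SE 0.04). A further 3 passed the adjusted p alone with higher levels and 5 with lower levels, of which Map3k11 was the furthest down at -0.90 (SE 0.05). With library size alone Map3k5 (0.82) and Map3k14 (0.83) missed the fold criterion and Map3k11 (-1.30) fell, which left Map3k6 as the 1 that rose. Around TPL2 itself, Nfkb1, whose p105 product binds and restrains it, rose from 129 ± 3.01 to 823 ± 28.2 CPM (SD over 3 libraries), with 2.67 as its log2 fold change (SE 0.04). Tnip2, which encodes its other binding partner ABIN-2, had a value of 0.34, the p105 kinase gene Ikbkb 0.74, and the substrate genes Map2k1 and Map2k2 0.18 and -0.04. Nfkb1 was the 1 gene of 9 in this route that rose, and 0 fell, against 10.5% and 10.4% of all tested genes.

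Sik1 (chr17:31844250-31855804, minus strand), a gene that CREB activates and whose product restrains CREB coactivators in turn, had 20.8, 23.0 and 24.0 CPM in control and 61.4, 59.7 and 54.8 CPM in LPS libraries. The groups were clearly apart, and the log2 fold change was 1.38 (SE 0.06, edgeR adjusted p = 1.71e-13), or 2.60-fold. The ratio was 1.56, 1.37 and 1.19 in batches 1 to 3. With library size alone it was 0.97 and missed the fold criterion. Its relatives Sik2 and Sik3 had log2 fold changes of 0.48 (SE 0.05) and 0.65 (SE 0.05), below the fold criterion. The share of Sik1 in the SIK family, per kilobase, was 41.0% ± 1.60 in control and 54.7% ± 0.774 in LPS libraries (SD, n = 3 each, exact permutation p = 0.1). The change of 13.7 percentage points was 13.3 points with the longest transcript as the length and 12.3 points with counts not divided by length. By the longest transcript, Sik1 had 4.997, Sik2 5.109 and Sik3 5.112 CPM per kb in control. In LPS libraries these values were 13.0, 7.15 and 8.03, so the share of Sik1 in each group depended on the length used. Of the 7 genes listed as SIK1 regulators or substrates, 1 rose and 0 fell, against 10.5% and 10.4% of all tested genes. The gene that rose was Crtc2, a CREB coactivator, with a log2 fold change of 1.31 (SE 0.06). With library size alone Crtc2 was at 0.90 and no longer met the fold criterion.

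Sgk1 (chr10:21882184-21999903, plus strand), first known as a serum- and glucocorticoid-induced kinase, had 92.3, 90.4 and 99.9 CPM in control and 552, 537 and 556 CPM in LPS libraries, for a log2 fold change of 2.54 (SE 0.04, edgeR adjusted p = 1.00e-19), or 5.82-fold. Sgk3 had 99.2 ± 5.03 CPM in control and 114 ± 4.20 CPM in LPS libraries (SD over 3 libraries) and a log2 fold change of 0.20 (SE 0.04), short of the fold criterion, and Sgk2 was near 0. Per kilobase, Sgk1 made up 73.5% ± 0.932 of the SGK family in control and 93.3% ± 0.114 in LPS libraries (SD, n = 3 each, exact permutation p = 0.1). The change of 19.8 percentage points was 31.7 points with the longest transcript as the length and 34.0 points with counts not divided by length. By the longest transcript, Sgk1 had 30.4 and Sgk3 26.2 CPM per kb in control, so the control share of Sgk1 depended on the length used. In the 6 genes of the upstream route and targets of SGK1, 0 rose and 1 fell, against 10.5% and 10.4% of all tested genes. The gene that fell was Mlst8, which encodes a subunit of both mTOR complexes. It had 16.4 ± 1.18 CPM in control and 4.37 ± 0.0756 CPM in LPS libraries (SD over 3 libraries). Its log2 fold change was -1.91 (SE 0.08).

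Mapkapk2 (chr1:131053700-131097826, minus strand) was the most abundant of the 10 per kilobase before stimulation. It had 325, 348 and 339.9 CPM in control and 885, 905 and 897 CPM in LPS libraries, for a log2 fold change of 1.41 (SE 0.04, edgeR adjusted p = 1.31e-16), or 2.65-fold. Mapkapk3, which encodes the related p38 substrate MK3, rose alongside Mapkapk2, from 61.1 ± 2.70 to 178 ± 5.12 CPM (SD over 3 libraries). Its log2 fold change was 1.54 (SE 0.04, edgeR adjusted p = 1.36e-16). Of the 8 tested paralogs of the 10 kinase genes, 1 rose (Mapkapk3) and 0 fell, against 10.5% and 10.4% of all tested genes. Mapkapk5 had a value of -0.35 (SE 0.16, edgeR adjusted p = 0.0705). The share of Mapkapk2 in the family was 90.5% ± 0.484 in control and 90.0% ± 0.233 in LPS libraries (exact permutation p = 0.2), and a difference was not shown.

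A pair of features annotated inside Mapkapk2 introns, on its strand and sharing no exon base with it, had larger folds than the gene; they were compared after their values were seen. Gm37084, a locus of unconfirmed type, was counted 948, 944 and 938 times without LPS and 4663, 4705 and 4626 times with it. Gm25549, annotated as an snRNA, was counted 52, 50 and 40 times and then 227, 271 and 259 times. Their log2 fold changes were 2.78 (SE 0.04) and 2.88, against 1.41 for Mapkapk2. For each 100 counts of Mapkapk2 there were 6.03 ± 0.0747 counts of Gm37084 in control and 15.6 ± 0.395 in LPS libraries (SD, n = 3 each), a 2.59-fold difference, and 0.303 ± 0.0422 and 0.843 ± 0.0765 counts of Gm25549, a 2.79-fold difference. The exact permutation p was 0.1 for each, the smallest possible. The libraries were made from total RNA, in which reads from introns of unspliced transcripts are also present; whether the counts of these features come from such transcripts was not tested.

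**Figure D3:**
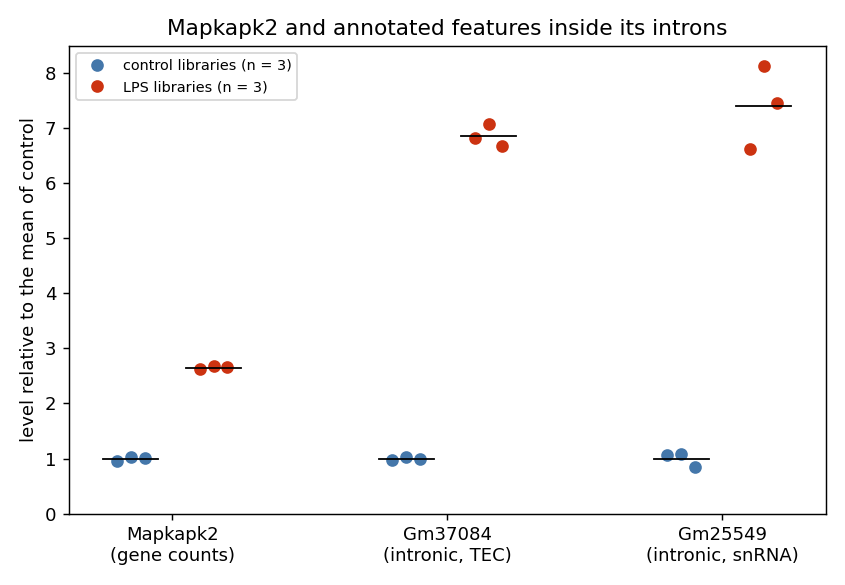
Level of Mapkapk2 and of the 2 features annotated in its introns in each library, divided by the control mean of the same feature (vertical axis from 0), with 3 control (blue) and 3 LPS (red) libraries and the group mean as a line. The LPS libraries average 2.65 times the control mean for Mapkapk2 and 6.86 times for Gm37084, with no overlap of groups.

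Ordered by CPM per kb, the control macrophages had Mapkapk2 (111 ± 3.82, SD, n = 3), Plk2 (59.2 ± 1.09), Pim1 (33.9 ± 1.40), Sgk1 (19.2 ± 1.02), Map3k8 (13.8 ± 0.324), Pim3 (4.94 ± 0.185), Sik1 (4.40 ± 0.313), Trib1 (1.43 ± 0.0418), Plk3 (1.05 ± 0.0643) and Trib3 (0.572 ± 0.0267). In LPS libraries the order was Pim1 (407 ± 16.0), Mapkapk2 (294 ± 3.38), Sgk1 (112 ± 2.00), Pim3 (79.9 ± 5.30), Plk2 (78.9 ± 2.93), Trib1 (25.0 ± 1.28), Sik1 (11.4 ± 0.666), Map3k8 (11.1 ± 0.374), Plk3 (4.80 ± 0.146) and Trib3 (0.351 ± 0.106). Pim3 and Plk2, and Sik1 and Map3k8, were neighbours within their spread in LPS libraries. With the longest transcript as the length, Plk2 (127) stood above Pim3 (79.9) and Map3k8 (19.5) above Sik1 (13.0) in LPS libraries, and Sik1 stood just above Pim3 in control. Pim1 went from the third place to the first, with a level above that of 91.8% of tested coding genes in control and 99.2% in LPS libraries. For Trib1 these percentages were 25.7% and 86.0%, and for Pim3 51.7% and 95.4%. Plk2 stayed at 95.6% and 95.4%, and Map3k8 went from 79.0% to 71.5%.

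**Figure D4:**
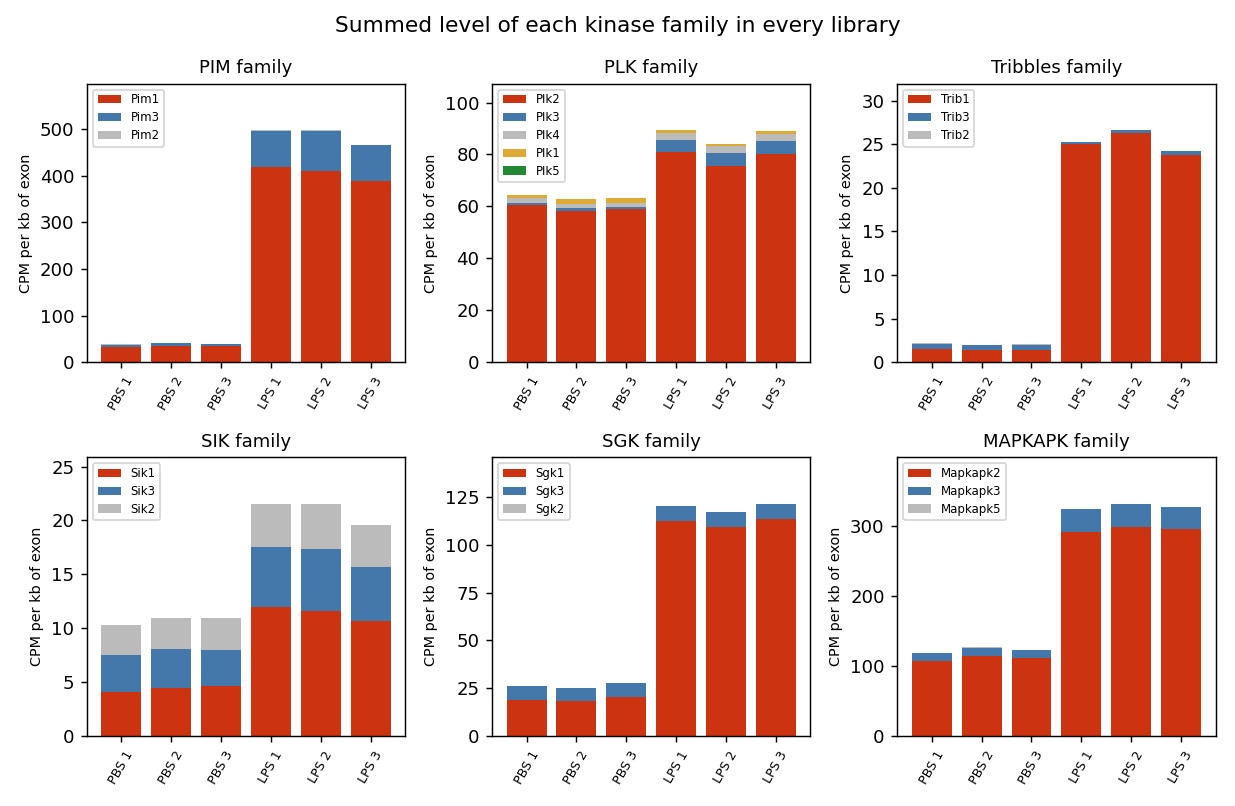
Summed CPM per kb of exon of the 6 kinase families in each of the 6 libraries (PBS is control), with a colour for each gene and its own vertical scale, from 0, for each family. The PIM sum goes from 39.5 to 487 and the PLK sum from 63.4 to 87.6 CPM per kb on average, and in the Tribbles bars after LPS nearly all is Trib1. The PLK difference depends on the scaling, since most of that sum is Plk2. With library size alone the log2 fold change of Plk2 was 0.01.

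**Figure D5:**
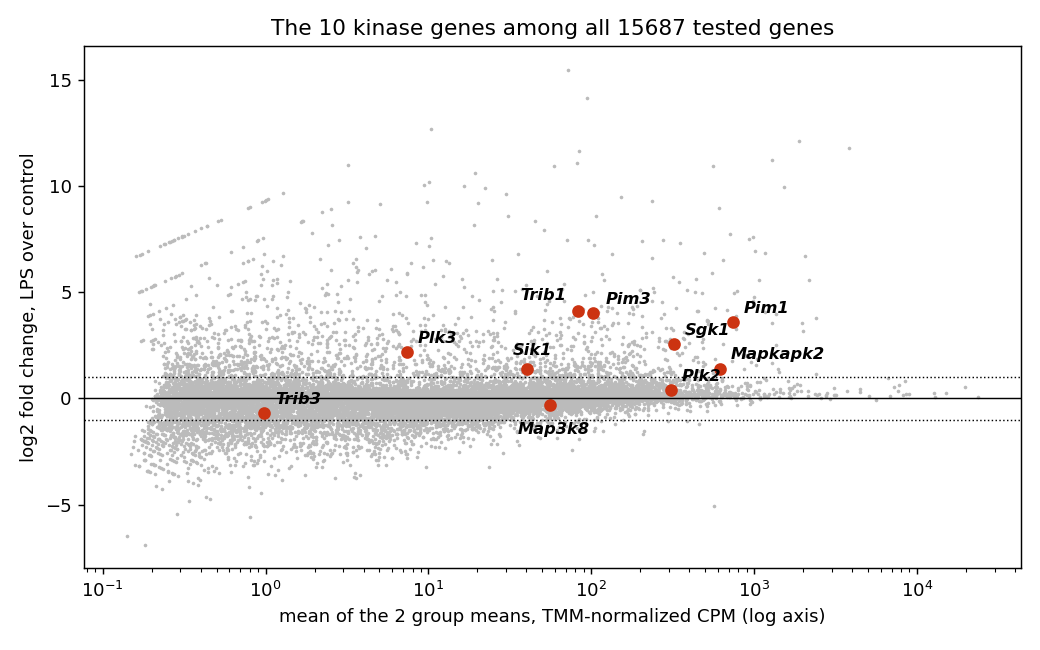
Log2 fold change of LPS over control against the mean of both group means in TMM-normalized CPM (log axis) for 15687 tested genes (grey), with the 10 kinase genes in red and dotted lines at the fold criterion. The 7 genes that rose lie above the upper line at levels from Plk3 to Pim1, and Plk2, Map3k8 and Trib3 lie between the lines.

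Of 42 listed genes of the pathways around these kinases, 41 were tested, 7 rose and 4 fell, with a median log2 fold change of 0.18; these shares are to be read against the 10.5% and 10.4% of all tested genes. A further 20 passed the adjusted p alone with higher levels and 6 with lower levels. With library size alone 5 rose and 5 fell, since Crtc2 and Stat5a (0.81) were no longer called and Det1 (-1.27), whose product works with COP1, was. In the route of MK2, Map2k3, which encodes a kinase that activates p38, rose from 34.4 ± 0.788 to 199 ± 4.88 CPM (SD over 3 libraries), with 2.53 as its log2 fold change (SE 0.04). Zfp36, which encodes the MK2 substrate tristetraprolin, a protein that destabilizes AU-rich mRNAs, rose from 57.4 ± 2.52 to 1099 ± 3.18 CPM, a log2 fold change of 4.26 (SE 0.04). The p38α gene Mapk14 had a value of 0.00 (SE 0.03), and Tab1, which encodes an adaptor of the kinase TAK1 and of p38α, fell with a value of -1.41 (SE 0.07).

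In the Tribbles route, Cebpa, whose product is degraded through Trib1 and COP1, had 66.1 ± 6.60 CPM in control and 33.0 ± 2.25 CPM in LPS libraries, and its log2 fold change (SE 0.06) lay just past the criterion of -1. The call of Cebpa was lost with a replicate block, which left 3 fallen partners, and in several other fits, among them the fit without control library 2 (-0.92). Cebpb, the C/EBP gene known to respond to inflammation, went from 51.0 ± 10.7 to 383 ± 82.1 CPM (SD over 3 libraries), with 2.91 as its log2 fold change (SE 0.13), with a wider spread between libraries than in the 7 kinase genes that rose. Ddit3, which encodes CHOP, fell with a log2 fold change of -1.26 (SE 0.07), the same direction as the value of Trib3. Atf4 had a value of 0.35 (SE 0.03), which is no larger than the shift of the median with library size alone. Its direction may thus depend on the scaling. Among the genes around the PIM kinases, Cdkn1a, which encodes the cell cycle inhibitor p21, rose from 21.5 ± 2.41 to 341 ± 3.61 CPM, a log2 fold change of 3.99 (SE 0.06), and Stat5a rose with 1.22 (SE 0.05). Stat3, Bad and Cdkn1b had values of 0.54, -0.27 and -0.21. Of the 6 genes around the PIM kinases, 2 rose and 0 fell, against 10.5% and 10.4% of all tested genes.

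In structure the 10 genes are mostly compact. Their spans in GENCODE M21 are 5.36 kb for Pim1, 3.54 kb for Pim3, 5.80 kb for Plk2, 5.31 kb for Plk3, 8.75 kb for Trib1 and 6.61 kb for Trib3, while the median of 12146 tested coding genes was 23.7 kb. Sik1 spans 11.6 kb and Map3k8 21.7 kb, and the spans of Mapkapk2 (44.1 kb) and Sgk1 (117.7 kb, with several start sites) are above the median. The pentamer ATTTA, the core of AU-rich elements, was counted in the 3′ untranslated region of 1 transcript per gene, the longest coding one. It was present in 8 of the 10 genes. Pim1 and Pim3 each had 5 copies, Plk3 and Map3k8 each had 4, and Sik1 and Sgk1 each had 3. Plk2 had 2 copies and Mapkapk2 had 1. At least 1 copy was present in 69.6% of tested coding genes and in 80.4% of those that rose. The median length of this region was 1138 bp in tested coding genes and 1407.5 bp in those that rose. The shares with a motif were not adjusted for this length. The longer form TATTTAT was present 4 times in Pim1, 3 times in Plk3, 2 times in Pim3 and Plk2, 1 time in Sgk1 and in none of the other five, and in 30.0% of tested coding genes and 43.4% of those that rose. Trib1 and Trib3 had no copy of either in the transcript searched. These letters were counted after the values were seen, and their part in the response was not tested.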

How the data were processed

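RNA was measured in 6 BMDM libraries prepared with a stranded total RNA kit that removes ribosomal and globin RNA. According to the labels and the submitters' processing notes, the authors checked reads with FastQC 0.11.9, aligned them to GRCm38 with HISAT2 2.1.0, used SAMtools 1.17 and counted reads per gene with featureCounts 2.0.0. The deposited values are raw counts. The annotation release, strand setting, treatment of multi-mapping reads and LPS dose were not given in the sources used here. Symbols, lengths and positions came from GENCODE M21 by gene identifier, which named 55154 of 55335 rows, 54587 of them with the identical version. Promoters came from RefSeq.

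Counts were tested with edgeR 4.0.16 in R 4.3.3 (filterByExpr, TMM, quasi-likelihood test without covariates, Benjamini-Hochberg adjustment over 15687 genes); the scripts were tested on simulated data. Calls were made at an adjusted p below 0.05 where the fold was also above 1 on the log2 scale in either direction. Standard errors were taken from the F statistic. A count of 3 corresponds to 0.0630 to 0.0919 CPM, a limit from counting error only. Shares within a family were compared by exact two-sided permutation tests. Alternatives used DESeq2 1.42.0, limma 3.58.1, other scalings, filters and lengths, a replicate block, and each library left out.

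The replicate number is named as a batch in the labels, so equal numbers pair a control with an LPS library. The deviations of the paired libraries from their group means correlated at -0.0139, 0.0822 and 0.0387, against a mean of -0.0178 for unequal numbers. The labels do not say that libraries came from separate animals or cultures, so p-values measure the spread between these libraries, which may be technical. The 10 genes, the lists of relatives and pathway genes and the motifs were chosen with earlier results of these data known. All 10 genes are described, with paralogs and those listed genes that passed a threshold or that belong to the route of a described kinase.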

Additional observations from a re-analysis of the deposited data

How the results depend on the processing

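All 10 kinase genes kept the direction of their log2 fold change in the 14 alternative fits, and 7 rose and 0 fell in each except as follows. With library size alone, which moved the median log2 fold change of all tested genes from -0.01 to -0.42, Sik1 (0.97) missed the fold criterion and Trib3 (-1.10) passed it, so that 1 kinase gene fell, 2964 genes fell in all, of the other MAP3K genes 1 rose and 1 fell, and of the partners 5 rose and 5 fell; upper quartile scaling also left 1 fallen MAP3K gene. Requiring 10 counts in every library left 1027 fallen genes, since fewer genes were tested. With the adjusted p alone, 5159 genes were higher and 5467 lower, 2 kinase genes were lower, 6 paralogs were higher and 1 lower, 6 other MAP3K genes were higher and 5 lower, and 27 partners were higher and 10 lower. Leaving out 1 library in turn gave 0 to 1 fallen paralogs, the 1 being Trib2 (-1.12), which had too few counts for the test with all libraries and was called without control library 2. For Trib3 the leave-out values ran from -0.97 without LPS library 3 to -0.54 without LPS library 1, with edgeR adjusted p-values up to 0.0620. With a replicate block 7 kinase genes rose and 0 fell, Trib3 had a value of -0.71, and the pairing changed no call of a kinase gene; 3 of the partners fell, against 4 without it, because Cebpa, at the fold criterion, was lost, as it was with DESeq2, limma voom, DESeq2 size factors and 3 of the leave-out fits. The family shares moved with the length used: the change for Trib3 was -26.3 percentage points per kb of exon, -21.0 with the longest transcript and -11.2 without length. Counts below about 60 per library limit Trib3, and gene-level counts cannot tell start sites of Sgk1 and Pim1 apart.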
